A study of Homo sapiens with 4 samples.

Results

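The genes described here are the clustered histone genes, taken as every gene of the deposited count table whose symbol starts with HIST1H, HIST2H, HIST3H or HIST4H. The rule gave 66 members of the 18917 genes in the table, namely 6 for histone H1, 15 for H2A, 18 for H2B, 13 for H3 and 14 for H4. The rule used names only and no measured value. Total RNA was sequenced from human embryonic kidney cells, called HEK293 in the labels and HEK-293T in the methods of the study, in 2 libraries of wild-type (WT) cells and 2 libraries of THUMPD1 knockout (KO) cells. THUMPD1 is the partner protein that directs the acetyltransferase NAT10 to make N4-acetylcytidine in leucine and serine tRNAs. The KO cells were made with CRISPR-Cas9 and sorted as single cells, so that genotype and clone cannot be told apart. Both lines grew in DMEM with serum and glutamine, and the labels give no treatment.

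Chromatin is built from a core of histones H2A, H2B, H3 and H4, with histone H1 bound to the linker DNA. The replication-dependent histones come from gene clusters with many copies of each type, which are transcribed mainly in S phase so that new DNA can be packed. Their typical mRNAs have no introns and mostly no poly(A) tail. They end in a conserved stem-loop that is bound by SLBP, and the U7 snRNP guides the cut behind it. Library preparation by removal of ribosomal RNA, as the labels give it, does not select for a poly(A) tail. The comparison of KO with WT cells asks how the loss of the tRNA acetylation factor bears on RNA levels, and here on the levels of these histone genes.

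Because the stem-loop is the feature that sets this class of mRNA apart, it is shown for the 5 members with the largest called rises and the 2 called falls of the comparison below. The sequences are from GENCODE 44 transcripts on GRCh38, matched by gene symbol, with the 16 bases of the stem-loop in capitals and up to 5 flanking bases on each side in lower case.
HIST1H2BF: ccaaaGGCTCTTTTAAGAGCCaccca
HIST1H3B: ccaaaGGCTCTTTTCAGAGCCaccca
HIST1H4D: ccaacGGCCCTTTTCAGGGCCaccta
HIST2H2AB: ccaaaGGCTCTTTTAAGAGCCacca
HIST1H1D: taaacGGCTCTTTTCAGAGCCaccca
HIST4H4: caaaaGGCCCTTTTCAGGGCCccca
HIST2H3D: ctaaaGGCTCTTTTCAGAGCCact
The arms differed by histone type. All 14 H4 members carried the arm GGCCCT, and the 49 other members in which a stem-loop was found carried GGCTCT. A fully paired stem of 6 bases around a loop of 4 bases was present in the last 100 bases of the transcript in 63 of the 66 members. HIST1H2AG, HIST1H2AK and HIST2H2BE had no such match in that window. The most frequent form, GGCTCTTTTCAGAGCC, occurred in 36 members, and a median of 5.0 bases followed the stem-loop. The 7 genes shown had ordinary stem-loops whether they rose or fell.

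The members also share promoter letters. Promoter windows from RefSeq on GRCh38.p14, 250 bases before to 50 bases after the start, were matched for 61 of the 66 members, and both strands were searched. The octamer ATTTGCAT, the site of the factor POU2F1, was found in 26 of the 61 windows (42.6%) against 1.80% of all 27305 promoters. By type it was in 11 of 14 H2A and 14 of 18 H2B promoters, in 1 of 11 H3 promoters and in 0 of the 6 H1 and 12 H4 promoters. CCAAT was found in 52 member promoters (85.2% against 35.7% of all) and TATAAA in 40 (65.6% against 12%). CGGAC, the core letters of the site of the H4 factor HINFP, was in 11 of 12 H4 promoters, while 28.7% of all promoters held these 5 letters. Many H2A and H2B genes are transcribed away from each other and share the stretch between their starts, so that their windows overlap and these counts are not independent. A pair of such stretches is printed from one start to the other, 5′ to 3′ on the plus strand, with the octamer, CCAAT and TATAAA letters in capitals on either strand. The first lies between HIST1H2BJ and HIST1H2AG, both abundant (chr6:27132796-27133042, 247 bases), and the second between HIST1H2AD, which had no count, and HIST1H2BF, which rose most (chr6:26199294-26199515, 222 bases).
HIST1H2BJ to HIST1H2AG: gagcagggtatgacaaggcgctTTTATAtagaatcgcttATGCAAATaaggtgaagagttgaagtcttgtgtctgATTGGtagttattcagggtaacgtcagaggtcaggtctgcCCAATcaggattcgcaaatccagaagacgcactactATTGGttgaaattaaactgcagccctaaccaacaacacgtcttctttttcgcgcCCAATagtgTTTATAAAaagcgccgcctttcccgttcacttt
HIST1H2AD to HIST1H2BF: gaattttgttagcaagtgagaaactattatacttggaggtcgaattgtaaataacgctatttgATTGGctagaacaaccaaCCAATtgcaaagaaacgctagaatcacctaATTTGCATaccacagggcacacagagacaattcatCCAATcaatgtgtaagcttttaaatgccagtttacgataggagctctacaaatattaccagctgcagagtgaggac
For H4, the 100 bases before the start are printed for HIST1H4D (minus strand, chr6:26189113-26189212), which rose, and HIST4H4 (minus strand, chr12:14771132-14771231), which fell, with TATAAA and CGGAC in capitals on either strand.
HIST1H4D: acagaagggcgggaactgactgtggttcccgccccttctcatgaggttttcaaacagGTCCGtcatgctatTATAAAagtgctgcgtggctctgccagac
HIST4H4: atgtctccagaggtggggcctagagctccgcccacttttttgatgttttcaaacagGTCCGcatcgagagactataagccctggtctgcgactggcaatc
Both H4 promoters held the GTCCG form of the HINFP letters, and the capitals show TATAAA for HIST1H4D alone within these 100 bases. In the full promoter window, TATAAA was found for HIST4H4 as well.

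The copies of a type resemble each other closely, which bears on how reads can be assigned. Of the 14 H4 genes, 13 encode the same protein, and of the 13 H3 genes, 10 do. The coding sequences of 2 members of a type were 59.2 to 77.4% identical for H1, 74.8 to 94.4% for H2A, 74.5 to 94.4% for H2B, 80.9 to 97.1% for H3 and 71.5% to full identity for H4. Windows of 50 bases were compared with the transcripts of all other genes, and 45 members had at least 90% of their windows to themselves. HIST1H4J and HIST1H4K, with identical coding sequences, had 7.9% and 7.4%, so that their separate counts are uncertain, as are those of HIST2H4A, HIST2H2AA4, HIST2H3C and HIST1H2BC, which had under 1%. HIST1H2BC overlaps HIST1H4C and HFE on the other strand and HIST1H1T on its own, and the gene of HIST1H3J overlaps that of HIST1H2AM. No source used here says if reads were counted by strand.

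The 4 libraries held between 7875722 and 11362363 counts. For the targeted gene THUMPD1, 356 and 468 reads were counted in WT cells and 71 and 58 in KO cells. It was lower in KO cells by a log2 fold change of -2.93 (standard error 0.17, adjusted p = 1.27e-12). All 12 markers of HEK293 and embryonic kidney cells were detected at a tested level, for example VIM at 309 to 354 CPM (counts scaled to a total of 1e6 reads). Among these 12, NEFM fell most, at -2.87, and LHX1 rose most, at 2.12 on 6, 6, 37 and 27 counts. Of 10 markers of other cell types, 7 had at most 3 counts in every library, among them HBB and HBA1 at 0, while COL1A1 stood at 18.5 to 25.3 CPM. Fold changes come from edgeR's quasi-likelihood test, with p-values adjusted over all 13128 genes that reached 1 CPM in at least 2 libraries, and a gene is called at an adjusted p under 0.05. Each standard error (SE) was derived as the absolute log2 fold change divided by the square root of the F statistic of that test. CPM are scaled by TMM. The labels do not say whether the libraries of a genotype came from separate cultures, so that p-values measure the spread between these libraries.

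The members fell into genes with many counts and genes with few or none. In each library together they took 1.70% and 1.79% of the WT counts and 2.14% and 2.06% of the KO counts. Of the 66, 38 had at least 50 counts in every library, whereas 21 stayed under 10 counts in every library and 9 had no count at all. The genes without counts were HIST1H2AD, HIST1H2BA, HIST1H2BM, HIST1H3C, HIST1H3I, HIST1H4F, HIST1H4G, HIST1H4I and HIST1H4L. A library total of this size allows up to 0.259 to 0.391 CPM at a count of 0, for counting error only. Low counts were not limited to genes with shared sequence, since 18 of the 23 members that were not tested, and 8 of the 9 at 0, had at least 90% of their windows to themselves. Over the whole table, 1875 of 18917 genes had no count in any library, among them ASF1A and CSTF2T of the lists below. Whether a 0 came from absent RNA or from the annotation and counting was not tested. HIST1H2BA, HIST1H2AA, HIST1H1T and HIST3H3 are known as testis histones, and their counts lay between 0 and 13. Per kilobase of the canonical transcript, the highest levels over the 4 libraries were those of HIST1H2AG at 3934 CPM per kilobase, HIST1H2BK at 3447, HIST2H2BF at 2669, HIST1H4C at 2501 and HIST1H1E at 2298. On the same scale, the members summed to 11528 for H2B, 9388 for H2A, 8208 for H4, 4209 for H1 and 2803 for H3. The unequal sums of H3 and H4, which pair in equal numbers in chromatin, are of reads assigned to single genes.

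**Figure D1:**
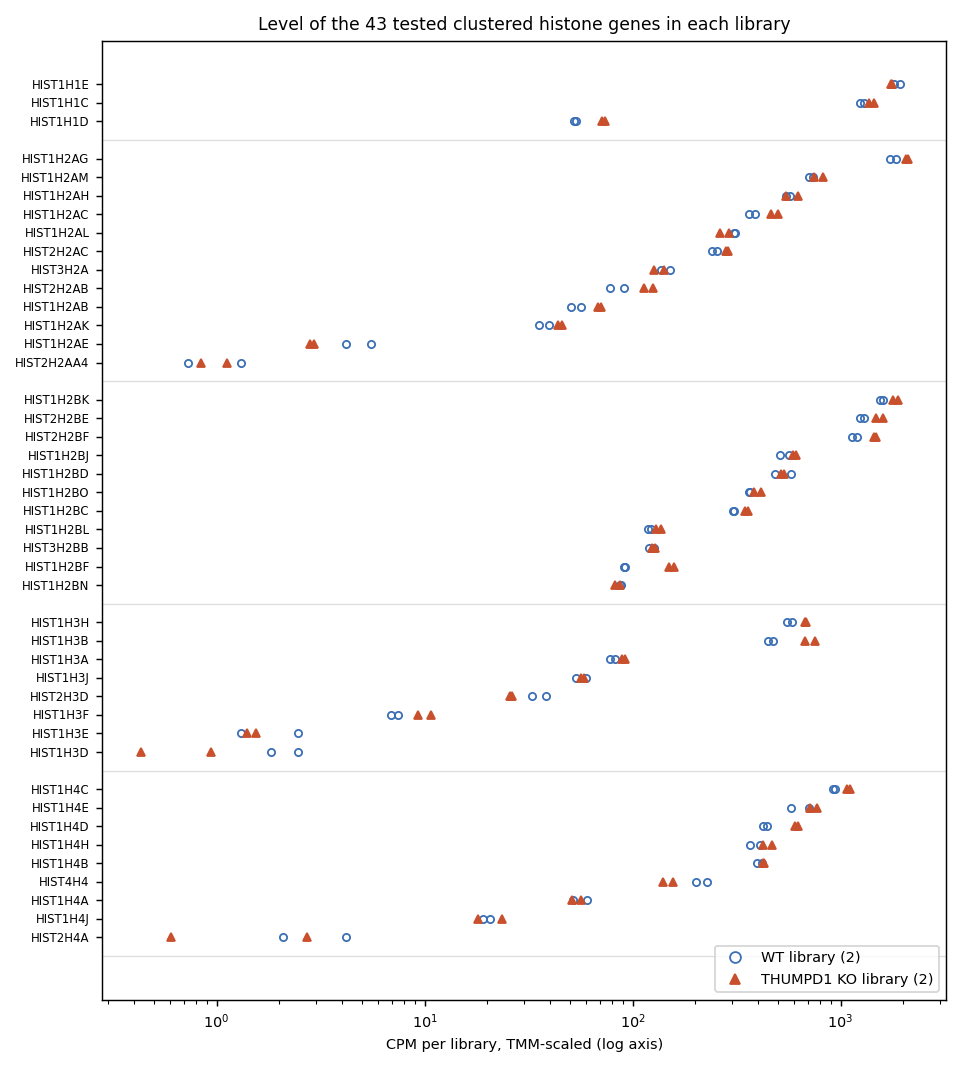
Level in CPM on a log axis (x) of the 43 tested members (y, by histone type and then by level), with an open circle for each of 2 WT libraries and a triangle for each of 2 KO libraries. Levels run from under 1 CPM to about those of HIST1H2AG, at 1731 and 1843 CPM in WT and 2074 and 2110 CPM in KO.

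Summed over all members, the RNA of clustered histone genes was higher in KO cells. The sum was 17478 and 18494 CPM in the WT libraries and 20663 and 20247 CPM in the KO libraries, or 17986 ± 719 and 20455 ± 294 CPM (SD, n = 2 each). Both KO libraries lay above both WT libraries, and the difference of the means was 13.7%, or 0.19 on the log2 scale. With 2 against 2 libraries an exact two-sided permutation test cannot give a p below 0.333, so no test was made of the sums. In bulk RNA, more cells that express a gene and more RNA per cell cannot be told apart.

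For H3 the sum was 1184 and 1244 CPM in WT and 1621 and 1539 CPM in KO libraries, 30.1% higher. Much of this lay in HIST1H3B, at 449 and 474 CPM in WT and 752 and 675 CPM in KO. The median log2 fold change of the 8 tested H3 members was 0.10. For H2B the sum was 6008 and 6334 CPM against 7304 and 7133 CPM, 17.0% higher. For H4 it was 2985 and 3203 CPM against 3472 and 3622 CPM, 14.6% higher. In these types, and in H2A, the KO libraries lay above the WT libraries. The H2A sum was 4206 and 4445 CPM in WT and 4987 and 4759 CPM in KO, 12.7% higher. The H1 sum, at 3095 and 3268 CPM in WT and 3280 and 3195 CPM in KO, overlapped between genotypes, and its difference of 1.75% took the other sign without WT replicate 1 (log2 ratio -0.01). HIST1H1E supplied 56.2% of H1 counts, and without it the H1 log2 ratio was 0.17 in place of 0.03.

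**Figure D2:**
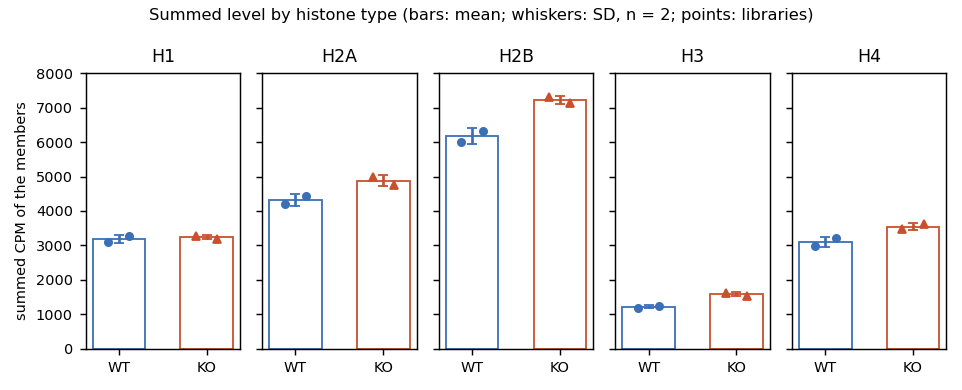
Summed CPM (y, from 0) of the members of each histone type in WT and KO cells, with bars for the mean, whiskers for the SD (n = 2) and points for the libraries. The KO points are above the WT points for H2A, H2B, H3 and H4, and they overlap for H1.

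Of the 66 members, 43 passed the filter on low counts and were tested. Among them 40 reached 1 CPM in every library, and HIST1H3D reached it only in WT libraries, so that it could enter the test only with a fall. In KO cells, 17 members were called higher and 2 lower, and 24 were not called. Over all tested genes, 8.79% were called higher and 12.1% lower, against 39.5% and 4.65% of the tested members. The same shares over all genes stand behind the counts by type below. By type, 33.3% of tested H1, 41.7% of H2A, 45.5% of H2B, 25% of H3 and 44.4% of H4 members were called higher. The lower shares of H3 (12.5%) and H4 (11.1%) were near that of all genes. With so few genes, 0 lower calls in H1, H2A or H2B show nothing particular to those types. The split over all genes depended on the scaling (1154 higher and 1594 lower with TMM, 2081 and 1158 with library size alone), while among the members it was 24 higher and 2 lower with library size alone. On the log2 scale the fold changes had their median at 0.15 in tested members and at 0.01 over all tested genes. Both KO libraries lay above both WT libraries in 26 tested members (60.5%), against 30.4% of all tested genes, and below them in 6 (14%), against 30.0%. Of the 19 called members, 12 (11 higher, 1 lower) were called in all 8 alternative fits and with each library left out. The 2 lower calls became 1 with DESeq2 and without WT replicate 2, where HIST2H3D lost its call.

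**Figure D3:**
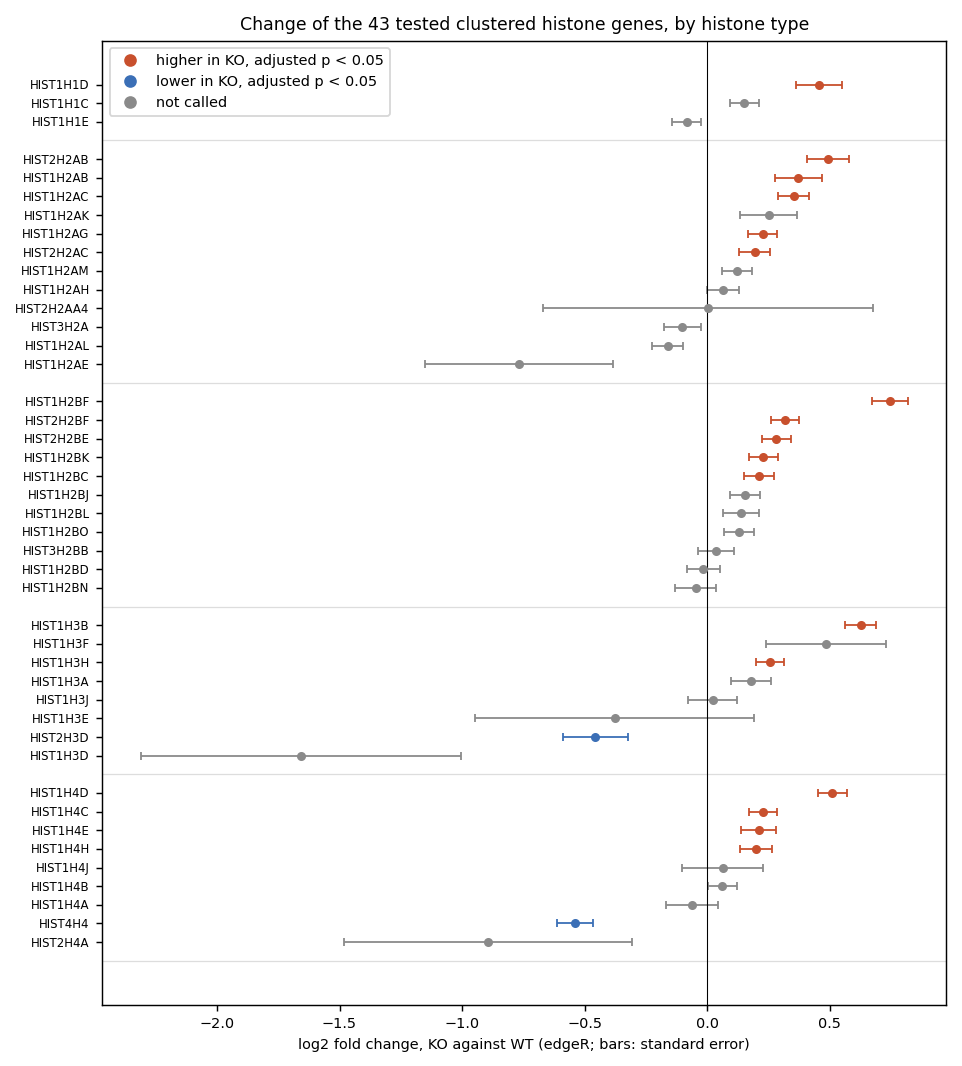
Log2 fold change of KO against WT (x, bars are standard errors) for the 43 tested members (y), grouped by histone type and ordered by value. Orange points are the 17 members called higher, blue points the 2 called lower and grey points the 24 not called, and the widest bars belong to members with few counts such as HIST1H3D and HIST2H4A.

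H1 binds the linker DNA between nucleosomes and compacts chromatin. Of its 6 genes, 3 were tested and 1 was called, higher. HIST1H1D (chr6:26234212-26234987) was at 53.2 and 52.3 CPM in the WT libraries and at 73.3 and 71.5 CPM in the KO libraries. The genotypes were well apart, with a log2 fold change of 0.46 (SE 0.09, adjusted p = 9.49e-04). HIST1H1E, the most abundant H1 gene, had 1799 and 1921 CPM in WT and 1760 and 1752 CPM in KO. Its KO libraries lay below its WT libraries, but the log2 fold change of -0.08 (SE 0.06, adjusted p = 0.341) was not called. HIST1H1C stood at 1240 and 1294 CPM in WT and at 1444 and 1370 CPM in KO, a log2 fold change of 0.15 (SE 0.06, adjusted p = 0.0698). This value missed the threshold with TMM and passed it in 5 of 8 alternative fits. HIST1H1T had 5, 6, 13 and 1 counts and was not tested, like HIST1H1A and HIST1H1B. The single call among H1 genes was thus made for the least abundant of the 3 tested.

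H2A pairs with H2B to form the dimers that flank the tetramer of H3 and H4 in the nucleosome. Of 15 H2A genes, 12 were tested, 5 were called higher and 0 lower by edgeR (1 lower at an unadjusted p under 0.05, 0 with DESeq2 or limma-voom). HIST1H2AG, the most abundant, was at 1731 and 1843 CPM in WT and at 2074 and 2110 CPM in KO. Its log2 fold change was 0.23 (SE 0.06, adjusted p = 0.00673), and without WT replicate 1 it was 0.18 and not called. HIST2H2AB (chr1:149887469-149887965) rose most in this type, from 77.9 and 90.5 CPM to 125 and 113 CPM, a log2 fold change of 0.49 (SE 0.09, adjusted p = 1.45e-04). Its gene overlaps BOLA1 on the other strand. HIST1H2AC had 363 and 388 CPM in WT and 498 and 461 CPM in KO, a log2 fold change of 0.35 (SE 0.06, adjusted p = 1.87e-04). The genotypes did not overlap in any of these genes. HIST1H2AB and HIST2H2AC were also called, at 0.37 and 0.19. HIST1H2AB was not called without WT replicate 1 or KO replicate 1, and HIST2H2AC was called with 1 of 4 libraries left out. HIST1H2AM was at 703 and 737 CPM in WT and 825 and 743 CPM in KO, and HIST1H2AH at 548 and 571 CPM against 625 and 544 CPM. Their log2 fold changes of 0.12 and 0.06 were not called. HIST1H2AL, at -0.16, had both KO libraries below both WT libraries and an adjusted p of 0.0737.

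Among 18 H2B genes, 11 were tested, of which 5 were called higher and 0 lower (edgeR, also 0 at an unadjusted p under 0.05 and with DESeq2 or limma-voom). HIST1H2BF (chr6:26199516-26199988) showed the largest called rise of all members. It stood at 92.1 and 91.0 CPM in the WT libraries and at 157 and 149 CPM in the KO libraries. The libraries of a genotype were close to each other, and the log2 fold change was 0.75 (SE 0.07, adjusted p = 6.17e-08), or 1.68-fold. With each library left out it stayed between 0.71 and 0.79. Its sequence was hardly shared, with 99.8% of windows found in no other gene. The most abundant H2B genes were called as well, at smaller fold changes. HIST1H2BK was at 1544 and 1597 CPM in WT and 1893 and 1791 CPM in KO, a log2 fold change of 0.23 (SE 0.06, adjusted p = 0.00616). HIST2H2BE had 1236 and 1301 CPM against 1599 and 1488 CPM, a log2 fold change of 0.28 (SE 0.06, adjusted p = 0.0013). HIST2H2BF had 1140 and 1197 CPM against 1440 and 1475 CPM, a log2 fold change of 0.32 (SE 0.06, adjusted p = 2.81e-04). In all of these the KO libraries exceeded the WT libraries by more than replicates differed, and the calls held with each library left out. HIST1H2BK has 42.8% of its windows to itself, HIST2H2BF 26.0% and HIST2H2BE 92.0%, so that the separate counts of HIST1H2BK and HIST2H2BF are uncertain. The gene of HIST2H2BF also overlaps FCGR1A on the other strand. HIST1H2BJ, at 510 and 564 CPM in WT and 590 and 607 CPM in KO, had a log2 fold change of 0.16 that was not called (SE 0.06, adjusted p = 0.0731). HIST1H2BC was called at 0.21, except without KO replicate 2. HIST1H2BD, HIST1H2BN and HIST3H2BB lay between -0.05 and 0.04, with overlapping libraries.

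H3 forms with H4 the tetramer at the centre of the nucleosome and carries many of the marks read by chromatin proteins. Of 13 H3 genes, 8 were tested, with 2 called higher and 1 lower. HIST1H3B (chr6:26031589-26032099) was at 449 and 474 CPM in WT and at 752 and 675 CPM in KO, a log2 fold change of 0.63 (SE 0.06, adjusted p = 6.74e-08). Its share of all H3 counts was 37.9% and 38.1% in WT and 46.4% and 43.8% in KO libraries. HIST1H3H, the most abundant H3 gene, had 555 and 582 CPM against 682 and 678 CPM, a log2 fold change of 0.26 (SE 0.06, adjusted p = 0.00232). Both genes encode the same H3 protein, and each has all of its 50-base windows to itself. HIST1H3A stood at 82.4 and 77.5 CPM in WT and 89.1 and 91.6 CPM in KO, and its 0.18 was not called (SE 0.08, adjusted p = 0.134). HIST1H3J, with 53.5 and 59.5 CPM against 58.5 and 56.6 CPM, was at 0.02 (SE 0.10, adjusted p = 0.904), with overlapping libraries. HIST2H3D (chr1:149813225-149813693), which encodes a slightly different H3 protein, fell from 32.7 and 38.3 CPM to 25.7 and 26.3 CPM. Its log2 fold change was -0.46 (SE 0.13, adjusted p = 0.0146), and it was not called without WT replicate 2 (-0.33) or KO replicate 1 (-0.44). It has 28.1% of its windows to itself. HIST1H3D, with 14 and 27 counts in WT and 5 and 10 in KO, had a log2 fold change of -1.66 with an SE of 0.65 and was not called.

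For H4, 9 of 14 genes were tested, with 4 called higher and 1 lower. HIST1H4D (chr6:26188710-26189112) had 423 and 442 CPM in WT and 627 and 606 CPM in KO. With a log2 fold change of 0.51 (SE 0.06, adjusted p = 6.49e-07) it showed the third largest called rise of all members. HIST1H4C, the most abundant, was at 942 and 923 CPM in WT and at 1077 and 1109 CPM in KO, a log2 fold change of 0.23 (SE 0.06, adjusted p = 0.00527). HIST1H4E had 575 and 702 CPM against 710 and 769 CPM, and HIST1H4H 369 and 409 CPM against 424 and 471 CPM. Their log2 fold changes of 0.21 (adjusted p = 0.0385) and 0.20 (adjusted p = 0.0311) were called narrowly. Both lost the call with DESeq2, with TMM without chromosomes 16 and 22, and without WT replicate 1 or KO replicate 2, and HIST1H4E then ranged down to 0.07. HIST4H4 (chr12:14767999-14771131), the only member on chromosome 12, moved the other way, from 203 and 227 CPM to 140 and 156 CPM. Its log2 fold change of -0.54 (SE 0.07, adjusted p = 6.33e-06) held in all alternatives and with each library left out. The gene is annotated with 6 transcripts, of up to 2 exons and 1918 bases, and which of them the reads came from was not tested. Its share of H4 counts was 6.78% and 7.09% in WT and 4.04% and 4.31% in KO. HIST4H4 and HIST1H4D encode the same protein and changed in opposite directions. HIST1H4B, at 399 and 417 CPM in WT and 424 and 428 CPM in KO, was not called, and HIST1H4A and HIST1H4J overlapped between genotypes.

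By their canonical transcripts, the 54 HIST1 members span chr6:25726063-27893891 on GRCh38, the 8 HIST2 members chr1:149811879-149887965, and the 3 HIST3 members chr1:228424845-228458558. Of the tested HIST1 members, 13 of 33 were called higher and 0 lower by edgeR (2 lower at an unadjusted p under 0.05, 0 with DESeq2, 1 with limma-voom). HIST2 had 4 of 7 called higher and 1 lower, and HIST3 had 2 tested members and 0 calls by edgeR, also at an unadjusted p under 0.05 and with DESeq2 or limma-voom. In percent, 39.4% of tested HIST1 members and 57.1% of HIST2 were called higher, and 0% and 14.3% lower. Over all tested genes it was 8.79% higher and 12.1% lower, and these shares also stand behind the other genes below. The HIST2 sum was 2735 and 2885 CPM in WT and 3480 and 3387 CPM in KO, 22.2% higher, and the HIST1 sum was 13.1% higher. The HIST3 sum, 257 and 278 CPM against 266 and 256 CPM, overlapped. Of the 12 other tested genes inside the HIST1 span, 0 were called higher by edgeR (2 at an unadjusted p under 0.05, 0 with DESeq2, 1 with limma-voom) and 2 lower, and their median was -0.20. The 2 lower genes, named after their values were seen, were ABT1 at -0.64 and BTN3A2 at -0.52, and BTN3A2 lost its call with any library left out. The median of the 665 other tested genes of chromosome 6 was 0.06, that of the 1277 other genes of chromosome 1 was 0.02, and that of the 698 other genes of chromosome 12 was 0.01.

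There were 11 divergent pairs of an H2A and an H2B gene, with 193 to 250 bases between their starts. In 7 pairs both genes were tested, in 2 only 1, and in 2 neither. Both partners were called higher in 2 pairs, HIST2H2AC with HIST2H2BE and HIST1H2AC with HIST1H2BC. In the pair printed above, HIST1H2AG was called at 0.23 and HIST1H2BJ was at 0.16 and not called. HIST1H2BK was called at 0.23 and its partner HIST1H2AH, with starts 250 bases apart, was at 0.06 and not called. No partner was called in the other 3 pairs tested on both sides. HIST1H2BF, the member with the largest called rise, faces HIST1H2AD, which had no count in any library, across the stretch of 222 bases printed above. HIST1H2AD has 16.1% of its windows to itself. The partners of a pair could thus differ in level although their starts lie within 250 bases.

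**Figure D4:**
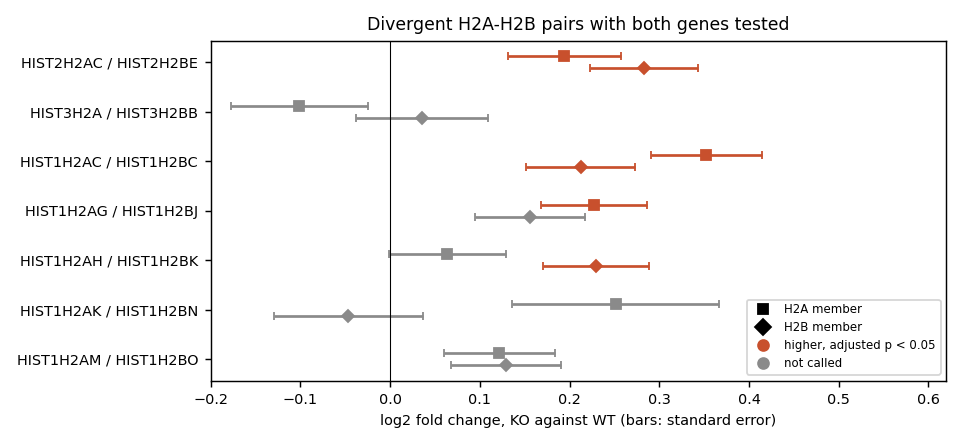
Log2 fold change of KO against WT (x, bars are standard errors) for both genes of the 7 divergent pairs with both partners tested (y). Squares are H2A and diamonds H2B genes, and orange marks members called higher. Both are orange in 2 pairs, and the partners HIST1H2AK and HIST1H2BN, at 0.25 and -0.05, are grey.

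Within H2A and H2B, all 10 calls of a rise were in members with the octamer letters. Of 15 tested members with ATTTGCAT in the promoter window, 10 were called higher and 0 lower, with a median log2 fold change of 0.23. Of the 7 tested members with a window without these letters, 0 were called in either direction by edgeR (1 at an unadjusted p under 0.05, 0 with DESeq2 or limma-voom), with a median of 0.00. Over all tested genes, 8.79% were called higher and 12.1% lower. Beside these shares, 0 calls among 7 members show nothing particular to them. HIST1H2AH, at 0.06 and not called, had no matched window and is in neither group, although its partner HIST1H2BK had the letters in its window. The 7 members without the letters were HIST3H2A, HIST1H2AK, HIST2H2AA4, HIST1H2BD, HIST1H2BL, HIST3H2BB and HIST1H2BN. They were also less abundant, with a median of 125 CPM (1.0 to 528) against 382 CPM (3.87 to 1940), and the part of abundance in the difference was not tested. Pooled over all types, 9 of 15 members of at least 500 CPM and 8 of 19 between 50 and 500 CPM were called higher. Of the 9 tested members under 50 CPM, 0 were called higher by edgeR (1 at an unadjusted p under 0.05, 0 with DESeq2 or limma-voom). Beside the 8.79% of all tested genes, 0 of 9 shows nothing particular to these members. Their standard errors ran from 0.12 (HIST1H2AK) to 0.67 (HIST2H2AA4), so that few of them could have been called. Of those 9, HIST2H3D was called lower. Members with at least 90% of windows to themselves had 12 of 27 called higher and 1 lower, and those with less had 5 of 16 higher and 1 lower. The split by octamer is a description made with the values known and has no test, and partners that share a promoter count as 2 members.

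Of 39 listed factors that transcribe and process histone mRNAs, 38 were tested, 4 were called higher and 3 lower, and the median log2 fold change was -0.01. Beside the 8.79% of all tested genes called higher and the 12.1% called lower, these counts show nothing particular to the list, and the same shares stand behind the lists that follow. NPAT, the coactivator of histone genes, was at 29.6 and 33.8 CPM in WT and 39.9 and 40.0 CPM in KO. Its libraries did not overlap, and the log2 fold change of 0.33 was not called (SE 0.12, adjusted p = 0.0588). CASP8AP2, also called FLASH, which binds the U7 snRNP for the cut, had 55.4 and 49.96 CPM against 68.8 and 60.8 CPM and a log2 fold change of 0.30 (SE 0.10, adjusted p = 0.0341). It was not called without WT replicate 2 or KO replicate 1. SLBP, which binds the stem-loop, stood at 76.0 and 69.9 CPM in WT and 65.3 and 67.1 CPM in KO, a log2 fold change of -0.14 that was not called (SE 0.09, adjusted p = 0.312). The U7 subunits LSM10 and LSM11 were at -0.04 and 0.14, ZNF473 at 0.14, the exonuclease ERI1 at -0.03 and the H4 factor HINFP at 0.08, none of them called. The largest called rises were those of CCNE2, which encodes cyclin E2, at 0.78 (SE 0.20, adjusted p = 0.0063) and of CPSF3, the endonuclease of the cut, at 0.33 (SE 0.09, adjusted p = 0.011). The falls were led by SRRT, a partner of the cap-binding complex, at -0.48 (SE 0.06, adjusted p = 4.71e-06), and SYMPK, a scaffold of the cleavage complex, at -0.44 (SE 0.07, adjusted p = 3.55e-05). CCNE2 lost its call without WT replicate 2 or KO replicate 2, and CPSF3 without WT replicate 1.

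Histone genes outside the clusters, which mostly encode replacement histones from single genes with poly(A) tails and are read here beside the clustered genes, were in part called in both directions. Of 17 in the table, 11 were tested, with 1 called higher, 2 lower and a median of 0.08. H3F3A and H3F3B, both for H3.3, were at 0.08 and 0.13 and not called, and so were H2AFZ at 0.11, H2AFX at 0.13, H2AFV at -0.02 and H2AFY2 at -0.03. H2AFY, for macroH2A, had 215 and 222 CPM in WT and 240 and 255 CPM in KO and a log2 fold change of 0.18 (SE 0.06, adjusted p = 0.0462). It kept the call with 1 of the 4 libraries left out. The linker histone genes H1F0 and H1FX were called lower. H1F0 went from 286 and 262 CPM to 213 and 220 CPM, a log2 fold change of -0.34 (SE 0.07, adjusted p = 4.85e-04), and H1FX from 77.6 and 92.4 CPM to 64.3 and 75.6 CPM, a log2 fold change of -0.29 (SE 0.10, adjusted p = 0.0362). H1FX lost its call without WT replicate 2 (-0.15) or KO replicate 1 and in 4 of the 8 alternative fits. H1F0 lies on chromosome 22, where 280 of the 311 tested genes had a log2 fold change below 0, with a median of -0.42. The difference between clustered and other histone genes was not tested.

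Of histone chaperones and import factors, 4 of 29 tested genes were called higher and 6 lower, with a median of -0.02, against 8.79% and 12.1% of all tested genes. MMS22L, which with TONSL acts at damaged replication forks, rose most, by 0.55 (SE 0.10, adjusted p = 2.04e-04), and UBN1, a subunit of the HIRA complex, fell most, at -0.64 (SE 0.09, adjusted p = 2.03e-05). Of the 6 lower genes, 4 lie on chromosomes with mostly negative fold changes, UBN1 and SRCAP on chromosome 16, where 502 of 574 tested genes were below 0 with a median of -0.44, and CABIN1 and HIRA on chromosome 22. Genes of S phase and DNA replication were mixed as well. Of 42 tested, 5 were called higher and 10 lower, with a median of -0.01. The largest rise was that of CCNE2, given above among the regulators of histone genes. Of 22 genes of G2 and mitosis, 10 were called higher and 0 lower, with a median of 0.12, and 3 were lower at an unadjusted p under 0.05 and 0 with DESeq2 or limma-voom. Their sum was 2457 and 2447 CPM in the WT libraries and 2916 and 2756 CPM in the KO libraries. CENPE, a kinetochore motor, had the largest rise, from 49.3 and 32.3 CPM to 90.01 and 72.9 CPM, a log2 fold change of 1.02 (SE 0.13, adjusted p = 4.07e-06). Clustered histone RNA thus was higher beside 10 of 22 mitotic genes called higher. Replication genes were called lower more often than higher, 10 against 5 of 42. The part of the cell cycle in the histone values was not tested. A list of 19 other transcripts without a poly(A) tail could not be read, since 0 of them are in the analysed table.

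The members also differ from other genes in codon use, which the study examined for leucine tRNAs. Of 679 leucine codons in the canonical coding sequences of the 66 members, 184 (27.1%) were TTA, TTG, CTT or CTA, against 43.3% in 12934 other tested genes. The share ran from 15.6% in H2B and 23.1% in H3 to 25.2% in H2A, 38.4% in H4 and 43.8% in H1. For serine, TCA, TCT and AGT made up 30.4% of codons in the members and 50.4% in the other genes. The types lay on both sides of that value, with 16.2% in H3, 19.4% in H2B and 38.7% in H1, but 52.7% in H2A and 75% (21 of 28 codons) in H4. These shares follow from the annotated sequences and not from the libraries, and codons of copies that arose from one another are not independent.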

How the data were processed

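RNA from 2 WT and 2 THUMPD1 KO libraries was compared. The deposited values are raw read counts, 1 whole number for each gene and library. The submitters' processing notes name hg19. The methods of the study name, for RNA-seq, STAR and RSEM on GRCh38, limma-voom after quantile normalization with genes under 1 CPM removed, and which steps made the counts is not stated. They also give 3 samples per genotype and another depletion kit, and other samples were not analysed here. The authors' deposited table of their own log2 fold changes and p-values was not used. The counts were analysed with edgeR 4.0.16 (R 4.3.3) by quasi-likelihood tests on TMM-scaled libraries, with genes at 1 CPM in at least 2 libraries and Benjamini-Hochberg adjustment over all of them. The fits were tested on simulated data, where DESeq2 missed some of the smaller changes that edgeR and limma-voom recovered and fell short of the limit set for it, which was then relaxed. Alternatives were library size, upper quartile, TMM without chromosomes 16 and 22, DESeq2 1.42.0, limma-voom 3.58.1, other filters, a replicate block and leaving out each library. Positions, transcripts and promoters are from GENCODE 44 and RefSeq on GRCh38, matched by symbol (66 of 66 members). Text names, per type, the 4 members with the highest mean CPM and the 5 largest called rises and falls with a mean of at least 5 CPM, then regulators of histone mRNA, histone genes outside the clusters with at least 20 CPM, and the largest called rise and fall of each other list. 1 gene that this rule names is not reported here. Any other member was picked for the text with its values in view. Members and lists were chosen with earlier results of these data known. Replicates differed by more than sampling noise (chi-square per degree of freedom 4.08 in WT and 6.90 in KO).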

Additional observations from a re-analysis of the deposited data

How the results depend on the processing

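Depth limited what could be read of members under 10 counts, and 2 libraries per genotype limited every test. THUMPD1 kept its call throughout, between -2.96 and -2.85, and between -3.02 and -2.85 with each library left out. The 17 members called higher became 15 to 24 in the 8 alternative fits and 12 to 18 with a library left out, and the 2 called lower became 1 with DESeq2, where HIST2H3D missed the threshold, 3 with TMM without chromosomes 16 and 22 and with limma-voom, and 1 to 3 with a library left out. Same-numbered WT and KO libraries did not deviate together (r = 0.02 over 13128 genes), so the numbers are not taken to pair the samples; with the replicate number as a block, 19 members were called higher and 3 lower. Of 184 values of the 23 named tested members in those fits, 167 kept direction and side of the threshold, 12 gained a call and 5 lost it. With library size alone the log2 ratio of the sums moved from 0.19 to 0.27 for all members, from 0.03 to 0.11 for H1, from 0.17 to 0.26 for H2A, from 0.23 to 0.31 for H2B, from 0.38 to 0.46 for H3 and from 0.20 to 0.28 for H4, a shift shared by all genes, whose median moved from 0.01 to 0.09. Without the most abundant member H1 was at 0.17 (HIST1H1E left out) and H3 at 0.48 (HIST1H3H left out). This H3 value still holds HIST1H3B, the H3 member with the largest called rise, and the sum without HIST1H3B was not calculated. With a library left out the ratios ran from 0.15 to 0.23 for all members, from -0.0138 to 0.065 for H1, 0.13 to 0.21 for H2A, 0.19 to 0.26 for H2B, 0.34 to 0.42 for H3 and 0.15 to 0.25 for H4, and H1 took its negative value without WT replicate 1. Restricting the sums to members with at least 90% of 50-base windows to themselves, an alternative chosen after seeing the data, gave 0.18 for all members.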
